A study of Mus musculus with 4 samples.

Results

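The islet hormone genes were examined as a group of 8 genes (Ins1, Ins2, Iapp, Gcg, Sst, Ppy, Pyy and Ghrl) of the 21829 protein-coding genes of the GENCODE M21 annotation. They were chosen by name, as the genes of the peptide hormones that islet cells secrete. A peak of methylated DNA was assigned to a gene when it overlapped the gene body or 10 kb on either side. MeDIP-seq enriches sheared DNA with an antibody against methylated cytosine and sequences it, so that sequenced tags pile up where methylated CpG sites are dense. It was carried out on islets from 8-week-old mice, with 2 libraries from WT and 2 from βRapKO animals. The labels give the strain as C57BL/6, while by the methods the Cre parent line was of a mixed background, C57BL/6J with a second strain. The WT mice carried the floxed alleles alone (Raptor lox/lox), and the βRapKO mice carried the same alleles with RipCre (Raptor lox/lox; RipCre). Both genotypes therefore share the floxed Raptor allele, and no group with RipCre alone was analysed here. RipCre is a Cre recombinase under the rat insulin promoter, so that Raptor, a subunit of the kinase complex mTORC1, is removed in beta cells and remains in the alpha, delta, PP and epsilon cells, endothelium and other cells of the same islets. The study used males unless stated otherwise. Nothing in the labels tells whether the 2 libraries of a genotype came from separate animals or pools, and p-values measure only the spread between these libraries.

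Each islet hormone is made mainly by its own cell type: insulin and amylin (Iapp) by beta cells, glucagon by alpha cells, somatostatin by delta cells, pancreatic polypeptide by PP cells and ghrelin by epsilon cells, while peptide YY is found in several islet cell types. Mice have a pair of insulin genes, of which Ins2 has the ancestral structure and Ins1 arose from it by retroposition. DNA methylation near a gene's start often differs between cells that use the gene and cells that do not. In whole islets the tags of all cell types are added, and a change in the share of a cell type cannot be told apart from a change in methylation within it. The study reported fewer insulin-positive cells per islet in βRapKO mice of this age, and their part in the values was not tested. The files hold DNA and no RNA, so the hormones could not serve to check the cell types by their expression.

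Peaks had been called in each library separately by the authors, 117638 to 151093 per library, from 25585533 to 31330751 tags that remained once duplicates were taken out. Joined where they shared at least 1 bp, they formed 186169 regions. A peak in every library, which the test needed, was found at 75052 of them (40.3%). Tag counts are given as deposited or as CPM, tags per 1000000 of those that remained, and pairs of values name replicate 1 first. There were 121186 and 151093 peaks in WT, with 32.0% and 35.4% of the tags inside them. The βRapKO libraries had 117638 and 119685 peaks, with 29.2% and 31.0% of the tags. For the median peak the density was 1.85 and 1.84 CPM per kb in WT against 1.69 and 1.69 in βRapKO. The median peak width was 1059 and 938 bp in WT against 1102 and 1150 bp in βRapKO. Density divides tags by each peak's own width, and the part of width in this difference was not tested. Deletion of Raptor could not be checked with tags of methylated DNA. At Rptor, the gene of Raptor, 13 of 38 regions were tested, 10 were lower and 3 higher in βRapKO, and the log2 fold-changes ran from −0.38 to 0.12 with 0 calls. Scaled by the tags inside peaks, 7 were lower and 6 higher.

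Every one of the 8 hormone genes had at least 1 region in its window, as had 90.5% of all protein-coding genes. There were 18 different regions: 6 at Ins2, 4 at Gcg, 3 at Ppy, 2 each at Sst and Pyy, and 1 each at Ins1, Iapp and Ghrl, with both Pyy regions counted also at the neighbouring Ppy. A region over the main transcript, which is 1.07 to 9.12 kb long at these genes, was found for Gcg (2 regions) and Pyy (1 region), or 2 of the 8 genes, and for 73.8% of all protein-coding genes, whose lengths differ. Only Pyy had a region over its promoter. Both WT libraries had a wide peak over the whole Pyy gene, where no peak was called in the βRapKO libraries. Such WT-only calls were found at 4.16% of all regions. Ins1 showed the opposite pattern, found at 1.58% of all regions, at a small region 3.35 kb downstream of its start. Of the 18 regions, 7 had a peak in every library (38.9%), 5 in a single library and 6 in 2 or 3, and none of the 7 was called different. Over all regions 40.3% had a peak in every library and 27.5% in a single library.

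**Figure D1:**
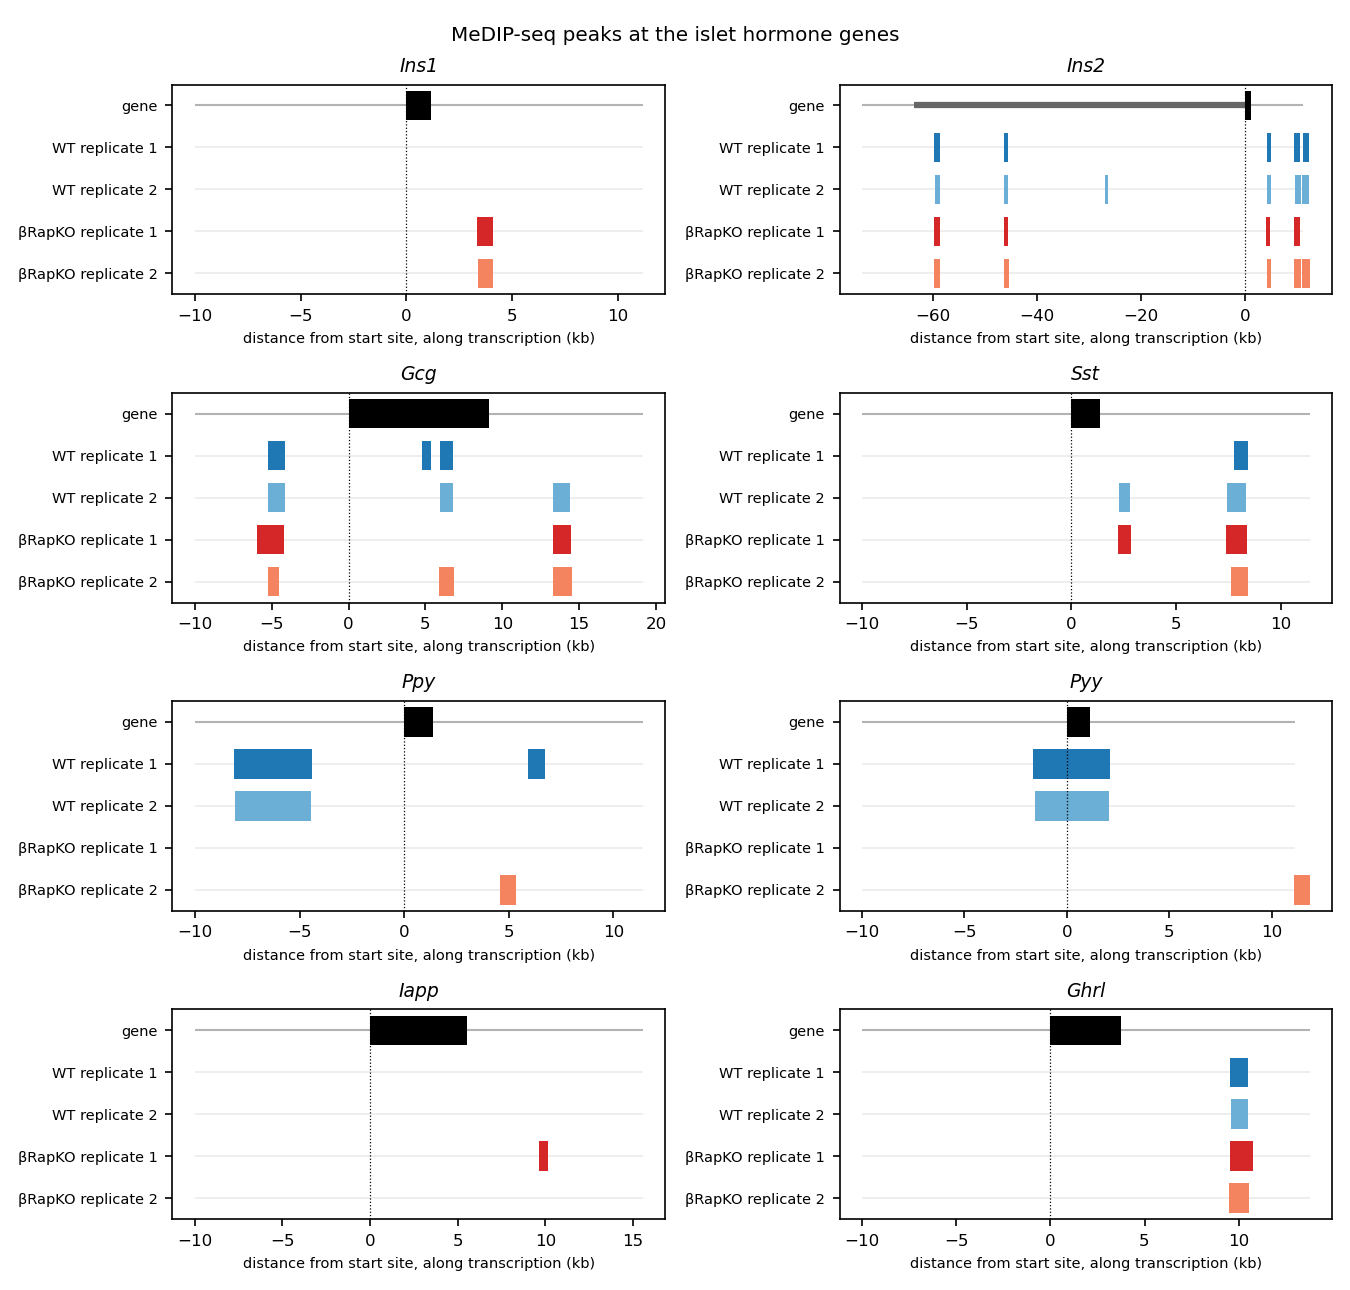
Peaks of each library (coloured bars, 1 row per library) at the 8 hormone genes, by distance from the start site along the direction of transcription in kb. The black bar is the main transcript, the dark grey line the annotated gene and the thin line the window of 10 kb on either side. The WT libraries alone have a peak over Pyy (also shown upstream of Ppy), and the βRapKO libraries alone have a peak downstream of Ins1.

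The promoters of the hormone genes are poor in CpG sites, the substrate of methylation that the antibody detects in clusters. In the window from 250 bases before to 50 bases after the start, Pyy had 8 CpG sites, Gcg and Sst 6, Ppy and Iapp 4, Ins2 and Ghrl 3 and Ins1 0, against a median of 12 over all protein-coding genes. A promoter without a single CpG, as at Ins1, was found for 5.06% of all genes. Among all genes, 8.21% had a region over this window. The share was 5.46% of the 4196 genes with 0 to 2 CpG sites, 16.5% of the 3071 genes with 3 to 5 and 22.7% of the 2344 genes with 6 to 9. It fell to 8.23% of the 4761 genes with 10 to 19 and 1.78% of the 7457 genes with 20 or more. Of the 3 hormone genes in the class with the highest share, Pyy had a region over its promoter and Gcg and Sst (by its GENCODE start) had none. These sequences show the contrast and were picked because they span what the hormone genes hold: a promoter inside a called region (Pyy), a promoter with CpG sites and no call (Sst), and a promoter without CpG sites (Ins1). They are the 250 bases before the RefSeq transcription start, read along the gene's strand on GRCm38.p6 (mm10), with each CG dinucleotide in capitals.
Pyy, chr11:102107833-102108082, minus strand: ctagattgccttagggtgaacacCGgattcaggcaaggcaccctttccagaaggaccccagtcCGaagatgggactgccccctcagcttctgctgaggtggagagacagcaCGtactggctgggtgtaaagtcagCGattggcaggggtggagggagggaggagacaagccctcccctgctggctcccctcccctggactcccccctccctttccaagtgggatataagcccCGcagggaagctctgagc
Sst, chr16:23890845-23891094, minus strand: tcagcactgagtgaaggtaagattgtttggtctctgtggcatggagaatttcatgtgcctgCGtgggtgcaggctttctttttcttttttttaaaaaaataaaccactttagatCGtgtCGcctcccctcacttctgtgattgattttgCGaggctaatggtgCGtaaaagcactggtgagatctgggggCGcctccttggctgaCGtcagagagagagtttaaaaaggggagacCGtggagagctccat
Ins1, chr19:52264047-52264296, plus strand: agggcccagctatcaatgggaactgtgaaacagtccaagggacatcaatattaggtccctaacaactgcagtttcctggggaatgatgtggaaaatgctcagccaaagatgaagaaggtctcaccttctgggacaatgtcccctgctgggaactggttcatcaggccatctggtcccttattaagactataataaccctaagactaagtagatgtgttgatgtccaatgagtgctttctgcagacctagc
These stretches held 5, 8 and 0 CpG sites. The RefSeq start of Sst lies 114 bp inside the transcript from the GENCODE start used for the counts above, and the window around the RefSeq start holds 13 CpG sites in place of 6, which would put Sst in the class of 10 to 19. A missing call says only that no peak passed the caller's threshold at this depth.

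**Figure D2:**
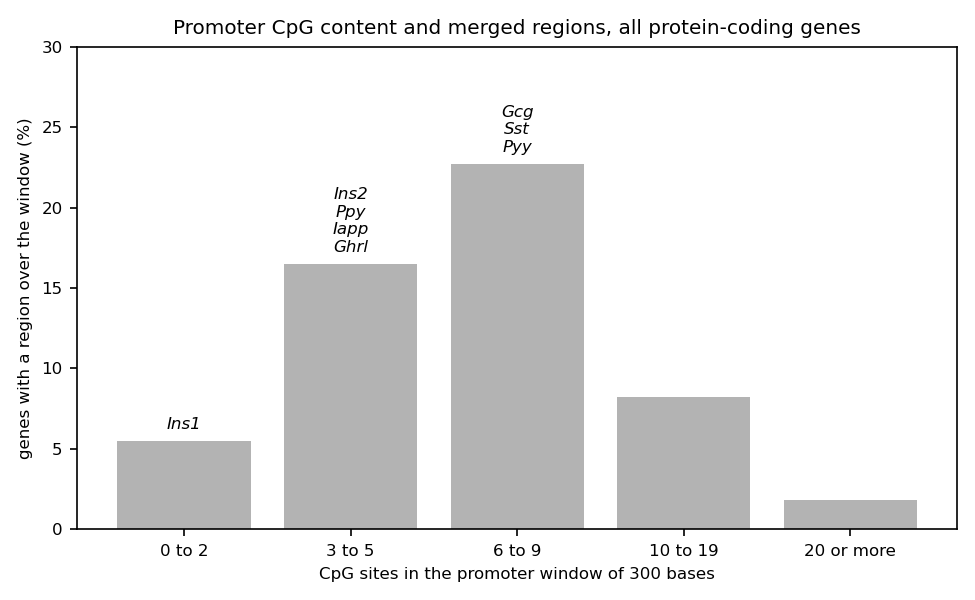
Share of protein-coding genes (percent) with a region over the promoter window, by the number of CpG sites among its 300 bases, with the hormone genes written above their class. Gcg, Sst and Pyy fall, by their GENCODE starts, in the class with the highest share, 22.7%, and Ins1 in a class with 5.46%.

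Pyy encodes peptide YY, a relative of pancreatic polypeptide and neuropeptide Y that acts on Y receptors. The gene (ENSMUSG00000017311.15, minus strand) has 4 exons in 1.16 kb, at chr11:102106676-102107832. The region spanned chr11:102105728-102109472, from −1640 to 2104 bp relative to the start, and so covered the promoter, all 4 exons, the 3 introns and the flanks. WT replicate 1 had 221 tags and WT replicate 2 had 256 tags, or 8.64 and 8.17 CPM (8.40 ± 0.330, SD, n = 2). No peak was called there in βRapKO replicate 1 or 2. The WT replicates were close to each other and the βRapKO libraries have no deposited value, so that no fold-change or test can be given. The nearest βRapKO peaks lay outside the region, and distances are given from its edges. In βRapKO replicate 1 they were 26.1 kb away on the Ppy side and 18.3 kb away on the other, and in βRapKO replicate 2 they were 8.98 and 18.4 kb away.

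The Pyy region was wide rather than steep. Its peaks were 3745 and 3597 bp long, longer than 99.3% and 99.4% of the peaks of their libraries, at a density of 2.31 and 2.27 CPM per kb. Their fold enrichment over the local background was 5.45 and 5.04, higher than only 15.5% and 10.3% of peaks. The local background is taken over 10000 bp of the same library and so includes the peak's own tags. The −log10(p) of the caller, multiplied by 10, was 71.2 and 114.6, with a minimum of 50.0 for a call. The region held 74 CpG sites, 1.98 per 100 bp, against a median of 1.60 over all regions and 0.802 over the genome. The gene itself had 47 CpG sites, 4.06 per 100 bp, the highest density of the 8 hormone transcripts.

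The summits of both WT peaks lay upstream of the start, at −837 bp in WT replicate 1 and −895 bp in WT replicate 2. The 300 bases around the summit of replicate 1, the peak with the higher CPM, are shown along the Pyy strand with CG in capitals, because the tags were deepest here.
Pyy region summit, chr11:102108519-102108818, minus strand: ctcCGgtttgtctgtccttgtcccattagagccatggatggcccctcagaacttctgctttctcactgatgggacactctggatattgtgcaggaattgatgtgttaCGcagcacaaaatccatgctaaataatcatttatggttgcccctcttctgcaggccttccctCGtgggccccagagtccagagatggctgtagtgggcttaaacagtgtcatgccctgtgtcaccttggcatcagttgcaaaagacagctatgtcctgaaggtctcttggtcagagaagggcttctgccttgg
This stretch held 3 CpG sites, and the 300 bases around the summit of replicate 2 held 5.

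Calls in the WT pair alone were found at 4.16% of all regions, and the mirror pattern at 1.58%. WT replicate 2 had the most peaks of any library, and the part of this in the 4.16% and 1.58% was not tested. Among the 18 hormone gene regions each pattern occurred once, too few to be set against these shares. Among the 7747 such WT-only regions, that of Pyy ranked 38 by mean CPM, where the median was 1.34 CPM. By peak width it ranked 28, where the median was 852 bp. A wider peak collects more tags, so these ranks are not independent. By density the Pyy region ranked 659 (2.29 CPM per kb, median 1.62), and by fold enrichment 6506 (5.245, median 6.545). A joined region can grow wider with each library called in it, so shares by width cannot tell how usual the Pyy pattern is. Of the 2609 regions at least 3745 bp wide, 84.6% had a peak in all 4 libraries, 38 (1.46%) had peaks in the WT libraries alone and 13 in the βRapKO libraries alone. A WT-only region over the promoter was found for 70 protein-coding genes, 0.321% of all. With stricter peaks, of at least 100 for the −log10(p) multiplied by 10, the peak of WT replicate 1 was lost and that of WT replicate 2 alone was left.

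**Figure D3:**
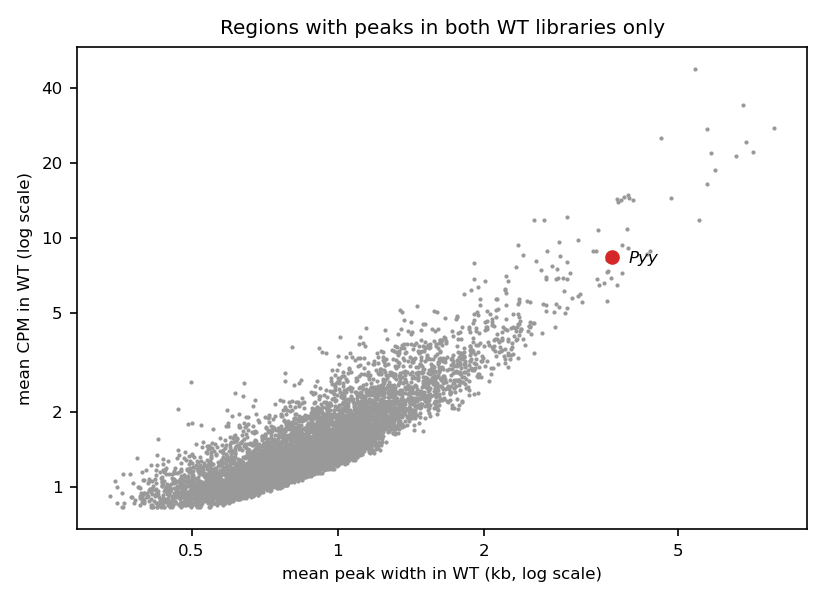
Mean peak width in kb (horizontal, log scale) and mean CPM in WT (vertical, log scale) of the 7747 WT-only regions, 1 grey point per region. The red point is the Pyy region, with 8.40 CPM, among the widest and most tagged of them. By fold enrichment, which is not drawn, it ranked 6506.

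Ppy encodes pancreatic polypeptide, the hormone of PP cells, and lies next to Pyy on the same strand (ENSMUSG00000017316.13, chr11:102099930-102101319). It had no region over its body or promoter. The Pyy region is also its upstream neighbour, between −8.15 and −4.41 kb from the Ppy start. A pair of small regions lay downstream, each called in a single library: chr11:102094576-102095425 where WT replicate 1 had 31 tags, and chr11:102095981-102096751, also within 10 kb of Pyy, where βRapKO replicate 2 had 35. Peaks covered 21.5% and 16.8% of the Ppy window in WT, and 0% and 3.60% in βRapKO. For Pyy the coverage was 17.7% and 17.0% in WT, and 0% and 0.359% in βRapKO. Both genes were lower in both βRapKO libraries than in either WT library, through the same region. Such a separation downwards was found for 15.6% of all protein-coding genes and upwards for 13.4%.

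None of the beta cell hormone genes had a region over its main transcript or promoter, which held also for Sst, Ppy and Ghrl. Their windows were the poorest in CpG sites of the 8. These held 0.670 (Ins1), 0.491 (Ins2) and 0.587 (Iapp) sites per 100 bp, against 0.802 over the genome. Ins1 (ENSMUSG00000035804.5, chr19:52264297-52265476, plus strand), a single-intron insulin gene, had 1 region, chr19:52267642-52268421, which began 2.17 kb past the end of the gene. βRapKO replicates 1 and 2 had 36 and 40 tags there, or 1.23 and 1.37 CPM (1.30 ± 0.0983, SD, n = 2). No peak was called in WT replicate 1 or 2. Fold enrichment was 7.37 and 8.15, and the summits of both libraries lay at the same base, 3819 bp downstream of the start. The region was rich in CpG sites, with 25 sites or 3.21 per 100 bp, above 97.3% of all regions. It was of ordinary size among the 2947 regions called in the βRapKO libraries alone, whose median was 1.34 CPM. With stricter peaks it was left in βRapKO replicate 2 alone.

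Ins2, the insulin gene conserved across mammals, has a main transcript of 1.07 kb at chr7:142678659-142679726 on the minus strand (ENSMUSG00000000215.11). The annotated gene is 64.7 kb long, because an extended transcript starts far upstream and shares the gene's name. No region lay over the main transcript or its promoter, and the nearest began 4.09 kb downstream of the start. Of the 6 regions in the window of the annotated gene, 3 lay downstream and 3 in introns 3, 2 and 1 of the extended transcript. These last lay between −59.9 and −26.3 kb from the start of the main transcript, and would not belong to Ins2 if that transcript alone were used. Peaks covered 4.63% and 5.01% of the window in WT and 4.48% and 5.03% in βRapKO, with overlap between the genotypes.

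The most tagged Ins2 region with a peak in all libraries was chr7:142669013-142670265, 9.46 to 10.7 kb downstream of the start, over exon 1 of the predicted gene Gm49394 and within the antisense RNA gene Igf2os. The WT replicates had 56 and 83 tags and the βRapKO replicates 59 and 70. The WT mean was 2.42 ± 0.326 CPM (SD, n = 2), beside a βRapKO mean of 2.21 ± 0.269 CPM (SD, n = 2). The genotypes overlapped, with WT replicate 2 highest and βRapKO replicate 1 lowest in CPM. The log2 fold-change of βRapKO relative to WT was −0.14 (SE 0.21, Benjamini-Hochberg adjusted p = 0.940 over the 75052 regions, by the quasi-likelihood test of edgeR).

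Its neighbour chr7:142667319-142668690, over exon 2 of Gm49394, had 57 and 107 tags in WT, and 66 tags in βRapKO replicate 2. βRapKO replicate 1 had no peak there, so that the region was not tested. At 3.42 CPM, the value of WT replicate 2 was the highest of any library at the Ins2 gene. Nearer the gene, chr7:142674673-142675632 had 40 and 30 tags in WT and 30 and 37 in βRapKO (log2 fold-change −0.10, SE 0.26). Upstream, the region at chr7:142725196-142726158 had 36 and 38 tags in WT and 35 and 37 in βRapKO (log2 fold-change −0.08, SE 0.18). These were the closest values between genotypes among the Ins2 regions tested.

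The farthest upstream region, chr7:142738327-142739587 in intron 1 of the extended transcript, had the lowest fold-change of all hormone gene regions. The WT replicates had 50 and 47 tags and the βRapKO replicates 38 and 46. Scaled to CPM, βRapKO replicate 2 (1.58 CPM) was above WT replicate 2 and the genotypes overlapped. Its log2 fold-change was −0.25 (SE 0.22, adjusted p = 0.891 by edgeR). Per kb of peak the genotypes were apart here, as at 3 other tested regions, with densities of 1.68 and 1.71 CPM per kb in WT against 1.21 and 1.32 in βRapKO. The remaining Ins2 region, chr7:142705981-142706611, had a call in WT replicate 2 alone, of 30 tags.

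Iapp encodes amylin, which beta cells release together with insulin. The gene (ENSMUSG00000041681.2, chr6:142298423-142303961, plus strand) had the fewest regions per kb of window among the 8. Its only region, chr6:142308061-142308572, held 24 tags in βRapKO replicate 1, had no call in the other libraries and lay 9.64 kb downstream of the start, in intron 1 of Slco1a5 on the opposite strand. This was the nearest call to the Iapp start in any library.

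Gcg encodes proglucagon, which alpha cells process to glucagon. The gene (ENSMUSG00000000394.15, chr2:62474530-62483650, minus strand, 6 exons) was the only hormone gene besides Pyy with regions over its exons. Over exon 4 and the flanking introns, chr2:62476815-62477747 had 30 and 34 tags in WT (1.17 and 1.09 CPM), and 42 in βRapKO replicate 2 (1.44 CPM). βRapKO replicate 1 had no peak. Over exon 3, chr2:62478318-62478873 had a call in WT replicate 1 alone, of 26 tags. Neither exonic region separated the genotypes by its calls.

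Upstream of Gcg, between −5.95 and −4.11 kb from the start, chr2:62487755-62489604 had a peak in all libraries. The WT replicates had 41 and 51 tags (1.60 and 1.63 CPM) and the βRapKO replicates 68 and 30 (2.33 and 1.03 CPM). The WT libraries lay between the βRapKO libraries, which had the highest and the lowest CPM. The βRapKO peaks were 1779 and 737 bp wide, and per kb of peak both libraries (1.31 and 1.395 CPM per kb) lay below WT (1.404 and 1.53). The log2 fold-change was 0.05 (SE 0.35, adjusted p = 0.986 by edgeR), and without βRapKO replicate 1 it was −0.65, and without βRapKO replicate 2 it was 0.53. Downstream, chr2:62469129-62470345 had 57 tags in WT replicate 2 and 57 and 45 in βRapKO, with no peak in WT replicate 1. Peaks covered 8.82% and 10.4% of the Gcg window in WT and 10.03% and 9.91% in βRapKO.

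Sst encodes somatostatin, the delta cell peptide that restrains insulin and glucagon release. The gene (ENSMUSG00000004366.4, chr16:23889573-23890958, minus strand) holds 44 CpG sites, 3.17 per 100 bp, and its promoter is printed above, yet no region lay over either. The steepest of all hormone gene peaks lay 6.00 kb past its end, at chr16:23882520-23883571. The WT replicates had 76 and 63 tags (2.97 and 2.01 CPM) and the βRapKO replicates 64 and 77 (2.19 and 2.64 CPM). The genotypes overlapped, and the difference was small beside the spread within WT (log2 fold-change −0.03, SE 0.24, adjusted p = 0.989 by edgeR). Fold enrichment was 14.7 and 12.3 in WT and 11.9 and 13.5 in βRapKO, higher than at least 91.8% of the peaks of each library. Repeats marked in the reference made up 81.4% of this region, the most of any hormone gene region, and its CpG density of 1.24 per 100 bp was above only 25.8% of all regions. The part of repeats in its tag count was not tested. A second region, chr16:23888112-23888745, lay 0.828 kb past the end and was called in WT replicate 2 with 30 tags and in βRapKO replicate 1 with 27.

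Ghrl encodes ghrelin, the acylated peptide of epsilon cells and of the stomach. The gene (ENSMUSG00000064177.8, chr6:113716119-113719880, minus strand) had 1 region, chr6:113709132-113710372, which lay 9.51 kb downstream of the start over exons 6 and 7 of Tatdn2 on the opposite strand. The WT replicates had 39 and 35 tags and the βRapKO replicates 49 and 38. Means were 1.32 ± 0.288 CPM for WT and 1.49 ± 0.265 CPM for βRapKO (SD, n = 2 each), and the genotypes overlapped. By coverage of the window they did not, with 4.01% and 3.85% in WT and 5.12% and 4.36% in βRapKO. Ghrl, like Ins1, was thus separated upwards by this measure, as were 13.4% of all protein-coding genes. Coverage grows with peak width, whose part was not tested. The Ghrl region had the highest log2 fold-change among the hormone gene regions, 0.19 (SE 0.23, adjusted p = 0.916 by edgeR).

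**Figure D4:**
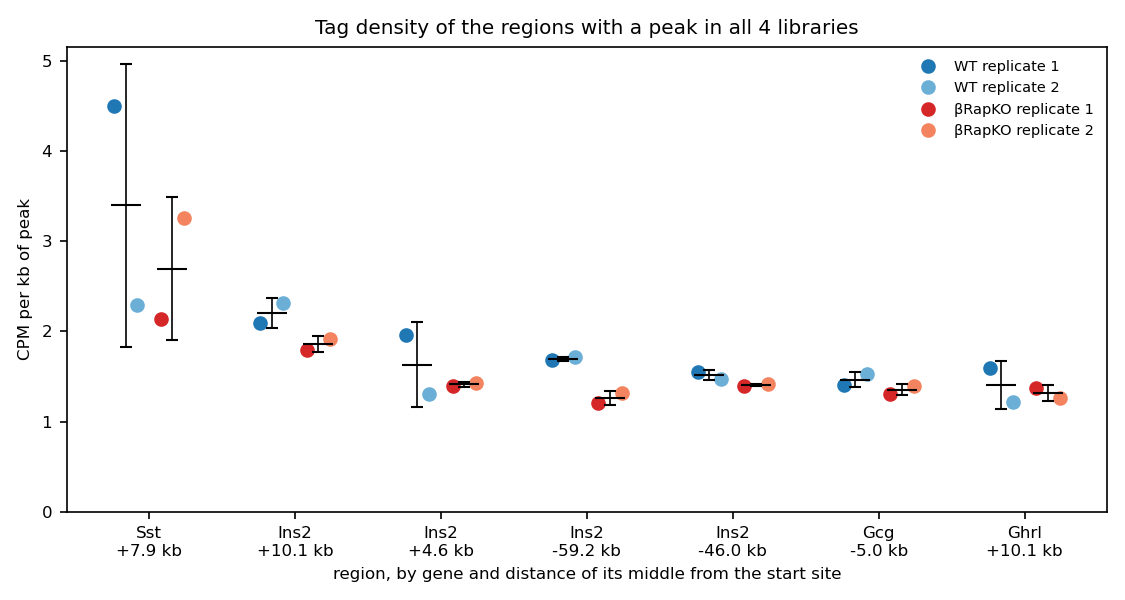
CPM per kb of peak in each library (points) for the 7 hormone gene regions that were tested, with the mean and SD of the 2 libraries of each genotype in black. The Sst region is the densest and the most spread, and the farthest upstream Ins2 region is the one with the widest gap between genotypes relative to its spread.

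Across the 7 tested regions (4 at Ins2 and 1 each at Gcg, Sst and Ghrl), 5 were lower and 2 higher in βRapKO, with a median log2 fold-change of −0.08. Over all 75052 tested regions 60.8% were lower and the median was −0.06. None of the 7 moved past 1.5-fold in either direction, where 1.77% of all regions did so downwards and 1.29% upwards. Only regions with a peak in every library were tested, and the smallest peaks held 23 to 25 tags. A weakly tagged region with a large loss would lose its call and leave the test, so these counts miss it. In none of the 7 did both βRapKO libraries lie below or above both WT libraries in CPM, where 25.3% of all regions lay below and 11.6% above. edgeR called 0 of the 7, and 0% of all regions. On simulated counts the same test found only 84 of 200 changes of 2-fold, so a missing call does not show that a region is unchanged. At an unadjusted p under 0.05 there were 4363 regions (5.81%) over the genome and none at a hormone gene. DESeq2 called 2 regions of the genome higher and 0 lower, neither at a hormone gene, with 963 at an unadjusted p under 0.05. Per kb of peak both βRapKO libraries lay below both WT libraries in 4 of the 7 (3 at Ins2 and the Gcg region) and above in 0, where 41.1% of all regions lay below and 4.54% above. The direction of these small differences rested on the scaling: when the tags in peaks served as library size, 1 region was lower and 6 were higher, and per kb of peak all 7 were lower, with a median of −0.19. The median of all regions moved likewise, to 0.10 and −0.17.

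**Figure D5:**
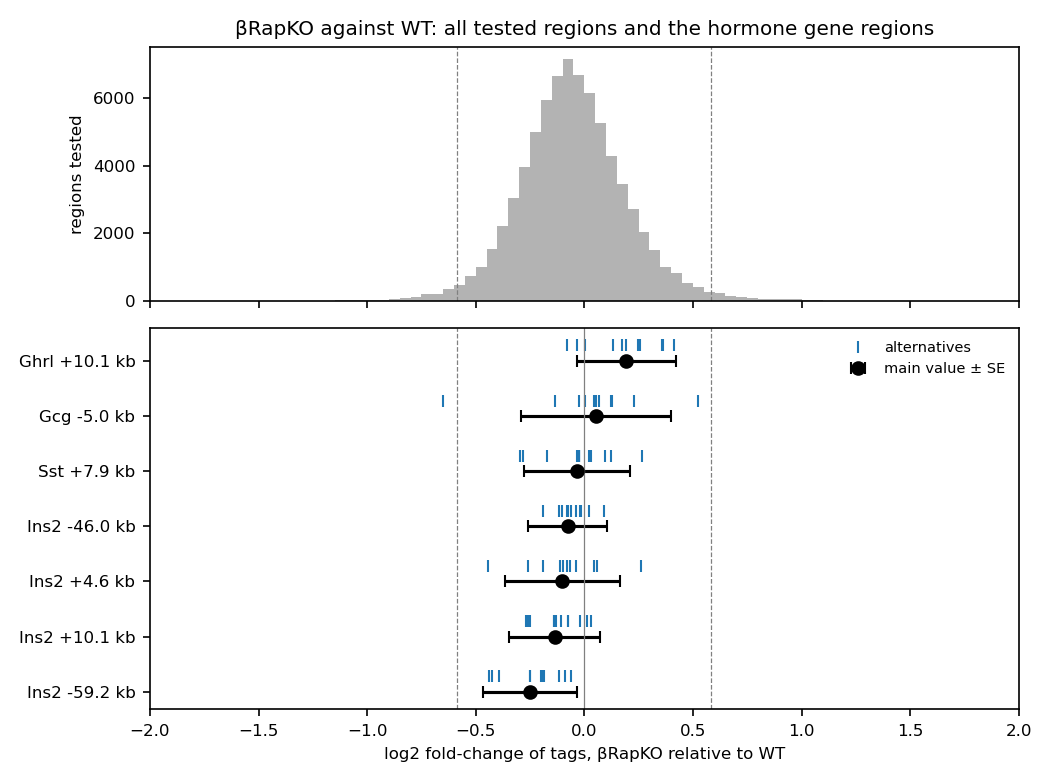
Above, number of tested regions by log2 fold-change of tags in βRapKO relative to WT. Below, the 7 hormone gene regions on the same axis, with the value and SE in black, the values under the alternatives as blue ticks, and dashed lines at 1.5-fold. Each value lies near 0, inside the dashed lines, and only the Gcg region has an alternative beyond them, at −0.65.

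The receptors through which these hormones act were read from a list of 16 genes (the insulin and glucagon receptors, 5 somatostatin receptors, 4 Y receptors, the calcitonin receptor with its 3 RAMP partners that make amylin receptors, and the ghrelin receptor). All but Sstr1 and Npy5r had a region in their window. Of 25 tested regions, 18 were lower and 7 higher in βRapKO, 1 was lower past 1.5-fold and 0 were called, with a median of −0.13; scaled by the tags inside peaks, 10 were lower and 15 higher, and per kb of peak 22 and 3. The most tagged were intron 11 of Calcr, the calcitonin receptor, with 9.89 and 11.4 CPM in WT and 9.62 and 9.53 in βRapKO, and exon 3 of Sstr5, with 8.36 and 10.2 CPM in WT and 7.80 and 8.43 in βRapKO. At exon 2 of Sstr2, a somatostatin receptor of alpha cells, the values were 6.41 and 6.38 CPM in WT and 6.40 and 6.89 in βRapKO. Their log2 fold-changes were −0.15, −0.19 and 0.05.

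Of 19 genes for other peptide hormones and neuropeptides, 17 had a region, with Nts and Adcyap1 as the exceptions. Among 15 tested regions 9 were lower and 6 higher, 2 were lower past 1.5-fold and 0 were called, and the balance turned to 5 lower and 10 higher when scaled by the tags inside peaks, and was 13 lower and 2 higher per kb of peak. The most tagged region lay upstream of Cartpt, with 22.6 and 20.5 CPM in WT and 25.7 and 26.3 in βRapKO (log2 fold-change 0.27, SE 0.09, adjusted p = 0.838 by edgeR). Cort encodes cortistatin, a somatostatin-like peptide that binds the somatostatin receptors. A region over its exon 1 had 17.0 and 16.9 CPM in the WT pair and 7.43 and 9.87 in the βRapKO pair. Both βRapKO libraries lay below both WT libraries, as at 25.3% of all tested regions. The log2 fold-change was −0.97 (SE 0.14) and was not called (adjusted p = 0.358 by edgeR). Tags were counted within each library's own peaks, and per kb of peak the log2 fold-change was −0.07. Downstream of Penk, the enkephalin precursor, the log2 fold-change was −0.05. Promoter regions were found at Gip and Cort in this list and at Gcgr among the receptors.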

How the data were processed

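The authors sequenced MeDIP libraries, aligned the reads with Bowtie2 (version 2.2.5 per the labels) to mm10, and ran MACS (version 1.4.2 per the file headers) on every library by itself. No control library entered, the p cutoff was 1e-05, duplicates were reduced to 1 tag per position, and the local background spanned 10000 bp. The deposited values per peak are a raw count of tags, a score (the −log10 of the p that MACS gave, times 10) and the fold enrichment, a ratio to the local background. The labels also name mm9. The peaks reached close to the chromosome ends of GRCm38, the assembly of mm10, and that build was used.

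Samples were grouped by genotype and replicate of the labels. Peaks of chromosomes 1 to 19, X and Y were joined where they shared 1 bp, and within a region the tags of each library were summed. Counts were scaled by the tags that remained per library once duplicates were out (25585533 to 31330751). The quasi-likelihood test of edgeR 4.0.16 (R 4.3.3) was fitted to every region of the genome called in each of the 4 libraries. A call needed a Benjamini-Hochberg FDR under 0.05 and a fold-change above 1.5. First checked on simulated counts, the test found 84 of 200 changes of 2-fold, with 2 false calls. Many true changes of that size would thus go uncalled. The counts were drawn with a single dispersion for all 75052 regions, and the changed regions were picked without regard to tag level. The share found need not hold for the weakly tagged hormone gene regions. Other regions were counted without a test, because a library without a peak has no deposited count. Exon numbers follow the principal transcript. Of the 8 genes, 7 matched in the RefSeq promoter sequences (GRCm38.p6), Ins2 being the other.

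The hormone genes, the receptor and peptide lists, and the marker lists of acinar cells and of duct, endothelial and leukocyte cells were chosen with earlier results of these data known. For every hormone gene each region was accounted for, with full values for regions over the gene or its start, the most tagged region and regions called in 1 genotype only. Of the receptor and peptide lists, the most tagged region of the 3 genes with the highest CPM was named. Alternatives were scaling by the tags inside peaks, TMM, peak width as an offset (tags per kb), a minimum of 50 tags per library, DESeq2 1.42.0, limma 3.58.1 on log2(CPM + 0.5), a score of at least 100 (stricter peaks), joining at 50% of the shorter peak, windows of 2 and 20 kb, a replicate block and leaving out each library. The main transcript of Ins2 in place of the extended gene was added after the data were seen. Python 3.11.15, NumPy 2.4.6, pandas 2.3.3, SciPy 1.17.1 and matplotlib 3.10.9 were used.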

Additional observations from a re-analysis of the deposited data

How the results depend on the processing

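No hormone gene region was called by edgeR, DESeq2 or limma under any alternative run, and the adjusted p of the 7 tested regions lay between 0.406 and 0.99998 throughout. DESeq2 called 2 regions of the genome higher, against 0 in edgeR. The number of hormone gene regions that could be tested was 7. It was 2 with at least 50 tags in every library, 2 with stricter peaks, 2 with a window of 2 kb and 12 with a window of 20 kb, where 5 of the 7 regions had no value under the first 2 of these settings. The region called in both βRapKO libraries alone (Ins1) was 0 with stricter peaks and 0 with the 2 kb window. With stricter peaks the count of WT-only regions remained 1, but it was the far upstream Ins2 region and not the Pyy region. With each library left out in turn, there were 1 to 3 WT-only regions and 1 to 2 βRapKO-only regions. Those of Pyy and Ins1 stay in these counts by definition, because their pattern holds in whichever libraries remain. Between 0 and 1 regions were lower past 1.5-fold, the latter being Gcg without βRapKO replicate 1. With the main transcript of Ins2 alone, 15 regions were left.

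Of the tested hormone gene regions, only the far upstream one of Ins2 kept its direction in every alternative that gave a value (−0.44 to −0.06). Scaled by the tags inside peaks, the log2 fold-changes turned to 0.030, 0.06 and 0.089 at the Ins2 regions from 142669013, 142674673 and 142725196, to 0.12 at Sst, 0.014 at Calcr and 0.11 at Penk. With TMM they turned to 0.031 at Sst and 0.017 at Penk, and with DESeq2 to 0.023 at Sst and 0.014 at Penk. Per kb of peaks they turned to −0.13 at Gcg and −0.081 at Ghrl, with limma to −0.025 at Gcg, and with stricter peaks to 0.11 at Penk. Leaving out a library gave ranges of −0.27 to 0.013, −0.44 to 0.26 and −0.19 to 0.024 at these Ins2 regions, −0.65 to 0.53 at Gcg, −0.30 to 0.26 at Sst, −0.033 to 0.41 at Ghrl and −0.17 to 0.078 at Penk. The cause was not tested.

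The replicate numbers are shared by the genotypes, but the deviations of same-numbered libraries from their group means correlated at only 0.0474 over the 75052 regions, and the labels tell nothing of a shared origin. With the replicate block 0 regions were called, 4731 had an unadjusted p under 0.05 against 4363 without it, and 5 of the 7 hormone gene regions were lower as before. Tags outside peaks were not used here, and with 23 to 25 tags in the smallest peaks, a weaker signal was not detectable at this depth. Only 2 libraries per genotype were compared.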

Other observations

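Genes that mark other cells of an islet preparation were read in the same way. At 9 acinar genes, 15 regions were tested, of which 7 were lower and 8 higher in βRapKO, with a median log2 fold-change of 0.03. At 8 genes of duct, endothelial and leukocyte cells, 23 regions were tested, of which 17 were lower and 6 higher, with a median of −0.18. Scaled by the tags inside peaks, these became 4 lower and 11 higher, and 14 lower and 9 higher, and per kb of peak 11 lower and 4 higher, and 18 lower and 5 higher. In both lists 0 regions were called by edgeR and 0 were past 1.5-fold. WT-only regions numbered 4 of 43 at the acinar genes (9.30%) and 1 of 57 at the others (1.75%), and βRapKO-only regions 0 and 2 (3.51%), against 4.16% and 1.58% of all regions. Among the 56 regions of the receptors 2 were WT-only (3.57%) and 0 βRapKO-only, and among the 45 regions of the other peptide hormones 5 (11.1%) and 1 (2.22%). Methylated DNA gives no measure of how many such cells were present, and their part in the values of the hormone genes was not tested.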
